A study of Mus musculus with 4 samples.

Results

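Interchromosomal junctions of the MLg line were described in 4 H3K4me3 HiChIP libraries, as the pairs that joined chromosome 13 between 97 and 101 Mb with chromosome 17 between 25 and 30 Mb, and chromosome 1 between 114 and 118 Mb with chromosome 10 between 41 and 45 Mb (mm10). Both ends of a pair had to reach a mapping quality of 30, a score of how uniquely a read is placed. The windows were chosen by the number of these pairs, which is high there, so the number and place of the pairs, and the likelihoods computed from them, are given as a description. The tests given for these pairs concern differences between single libraries, which were pooled when the windows were chosen. They hold 1700 of the 253172 10-kb bins with pair ends, and 2694 of the 8758270 pairs between chromosomes in the 4 libraries. The chromosome 13 and 17 windows held 1932 pairs, 11.7-fold of the 165 pairs that the coverage of both sides gives at the average level between chromosomes. The chromosome 1 and 10 windows held 762 pairs, 15.5-fold of the 49.1 expected.

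MLg (ATCC CCL-206) is an established line of mouse lung fibroblasts, and every library was made from it with an antibody against H3K4me3. In all groups the cells carried an antagomiR, an inhibitor of a microRNA, at 60 nM for 24 h. The Control group carried the negative control antagomiR without TGFB1, and the TGFB1 group received 5 ng/ml human recombinant TGFB1 for the last 4 h. The TGFB1+miR-9-LOF group carried the miR-9-5p antagomiR with TGFB1, and the miR-9-LOF group carried it without TGFB1. The control antagomiR is given by the shared protocol and not by the label of each sample. Values of single libraries are given below in the order Control, TGFB1, TGFB1+miR-9-LOF, then miR-9-LOF, called the library order. There was 1 library per condition, so no result below has a replicate of its condition. The 4 libraries share 1 cell line, so a junction seen in all of them is 1 observation of that line and not 4 independent ones.

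HiChIP ligates DNA ends that lie close to each other in the nucleus and enriches those bound by the antibody, here at active promoters, which carry H3K4me3. Contacts within 1 chromosome are frequent at short distance and fall with distance, whereas contacts between chromosomes are rare and nearly even. Where DNA of a pair of chromosomes is joined, the contacts across the join follow distance as if within 1 chromosome, and a sharp corner of the contact map marks the breakpoint. Long-grown cell lines commonly carry such rearrangements. The share of chromosome copies or cells that carry a junction and the contact frequency per copy cannot be told apart in these bulk libraries.

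The libraries held 10864558 to 15568047 valid pairs, of which 86.6% to 90.8% had both ends at a mapping quality of 30. Pairs between chromosomes made up 17.03%, 15.1%, 19.3% and 18.2% of these in library order. H3K4me3-enriched regions lay within 2 kb of 37.9% of the 21755 coding promoters. They lay at 7 of 12 promoters of fibroblast markers, Col1a1, Fbn1, Pdgfra, Pdgfrb, Prrx1, Twist1 and Vim, and not at Col1a2, Col3a1, Fn1, Thy1 or Tbx4, and at 0 of 8 lung epithelial, 0 of 5 endothelial and 0 of 5 immune markers.

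The pairs did not form 1 junction per window. The chromosome 13 and 17 pairs formed a segment of chromosome 13, bounded on both sides, that was joined at both ends to chromosome 17, which gives 2 junctions, and the chromosome 1 and 10 pairs formed the third junction, with a separate piece of chromosome 1. In all, 8 edges were placed, of which 2 bound this separate piece. Each of the other 6 is shown by 151 bases of the GRCm38 plus strand centred on the outermost pair end that supports it, with GATC, the MboI site at which the ends were cut and ligated, in capitals. The breakpoint itself lies at or beyond the centre base, on the side that is not joined. In the order of the lines below, these are the lower and upper edge of the chromosome 13 segment (chr13:98847849-98847999 and chr13:99392528-99392678), the last joined base below and the first joined base above a gap on chromosome 17 (chr17:27617228-27617378 and chr17:27632754-27632904), and the edges on chromosome 1 (chr1:115916390-115916540) and chromosome 10 (chr10:43169487-43169637).
13 lower edge: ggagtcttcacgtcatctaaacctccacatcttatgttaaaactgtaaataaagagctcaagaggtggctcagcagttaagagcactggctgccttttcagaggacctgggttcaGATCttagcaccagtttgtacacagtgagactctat
13 upper edge: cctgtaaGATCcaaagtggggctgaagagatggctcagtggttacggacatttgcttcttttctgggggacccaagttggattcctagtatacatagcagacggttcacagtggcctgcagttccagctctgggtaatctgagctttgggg
17 lower side: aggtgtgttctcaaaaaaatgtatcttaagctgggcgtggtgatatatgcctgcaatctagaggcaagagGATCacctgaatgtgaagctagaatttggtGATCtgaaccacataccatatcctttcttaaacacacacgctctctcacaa
17 upper side: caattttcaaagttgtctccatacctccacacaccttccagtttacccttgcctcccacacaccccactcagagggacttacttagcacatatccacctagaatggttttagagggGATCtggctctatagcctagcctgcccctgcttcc
1 edge: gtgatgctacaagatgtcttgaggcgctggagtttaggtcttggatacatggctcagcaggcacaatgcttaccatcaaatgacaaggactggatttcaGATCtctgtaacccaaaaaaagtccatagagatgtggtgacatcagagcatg
10 edge: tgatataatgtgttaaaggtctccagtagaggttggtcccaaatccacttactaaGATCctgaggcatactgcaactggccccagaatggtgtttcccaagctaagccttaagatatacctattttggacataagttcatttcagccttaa

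For 4 promoters the sequence is shown, because H3K4me3 and the contacts across the junctions both bear on them. They are the 3 with the most pairs between the segment and chromosome 17, leaving out Ptcd2, which shares the window of Mrps27, and the 1 with the most between chromosomes 10 and 1. Each sequence is the 300 bases from 250 before to 50 after the RefSeq start, on the strand of the gene, from RefSeq on GRCm38.p6. For Hmga1 and AI413582 this start differs from the annotated start used below for distances, pairs and H3K4me3. They belong to Hmga1 (chr17:27556324-27556623, plus strand), which encodes an AT-hook protein of chromatin architecture, to AI413582 (chr17:27565678-27565977, minus strand), to Mrps27 (chr13:99344536-99344835, plus strand), which encodes a protein of the small mitochondrial ribosomal subunit, and to Pdss2 (chr10:43221236-43221535, plus strand), an enzyme of coenzyme Q synthesis. Capitals mark the GC box GGGCGG or its complement CCGCCC, which were searched on both strands and may overlap.
Hmga1: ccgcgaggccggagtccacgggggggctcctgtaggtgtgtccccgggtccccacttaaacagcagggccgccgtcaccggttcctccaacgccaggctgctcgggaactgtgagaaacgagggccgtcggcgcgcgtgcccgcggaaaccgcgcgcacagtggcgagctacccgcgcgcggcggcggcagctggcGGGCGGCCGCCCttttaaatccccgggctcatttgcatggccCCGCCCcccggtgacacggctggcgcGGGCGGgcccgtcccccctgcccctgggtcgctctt
AI413582: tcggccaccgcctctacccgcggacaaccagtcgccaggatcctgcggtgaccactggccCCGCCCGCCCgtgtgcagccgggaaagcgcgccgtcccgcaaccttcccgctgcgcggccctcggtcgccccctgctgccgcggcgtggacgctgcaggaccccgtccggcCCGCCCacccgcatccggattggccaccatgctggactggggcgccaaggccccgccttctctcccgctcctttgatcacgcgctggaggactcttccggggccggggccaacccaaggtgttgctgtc
Mrps27: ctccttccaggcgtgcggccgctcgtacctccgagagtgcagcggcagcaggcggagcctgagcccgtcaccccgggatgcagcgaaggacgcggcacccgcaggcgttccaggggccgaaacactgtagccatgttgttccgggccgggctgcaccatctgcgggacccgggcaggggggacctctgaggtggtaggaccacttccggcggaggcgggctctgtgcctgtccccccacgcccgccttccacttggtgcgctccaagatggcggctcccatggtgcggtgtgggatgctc
Pdss2: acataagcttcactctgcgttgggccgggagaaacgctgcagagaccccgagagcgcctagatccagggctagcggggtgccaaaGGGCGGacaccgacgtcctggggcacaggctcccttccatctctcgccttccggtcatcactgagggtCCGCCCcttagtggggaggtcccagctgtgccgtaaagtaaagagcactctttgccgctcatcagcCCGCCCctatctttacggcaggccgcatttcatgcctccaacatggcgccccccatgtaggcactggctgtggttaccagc
The GC box occurred 4 times in the Hmga1 promoter, 3 times in that of AI413582, 0 times in that of Mrps27 and 3 times in that of Pdss2, and 35.7% of the 32851 RefSeq promoters held at least 1. The G and C content of these 4 promoters was 74%, 73.3%, 70.3% and 62%, against a median of 52.7% over all RefSeq promoters. Of the 29 protein-coding genes with a start within 500 kb of an edge, 18 matched a RefSeq promoter by symbol. They had 25 RefSeq promoters, of which 17 (68%) held the GC box, with a median G and C content of 70.3%.

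The chromosome 13 segment was bounded sharply at both ends. Its outermost supporting end was at 98847924 on the lower side and at 99392603 on the upper side, which makes 545 kb. Among the libraries the lower end lay at 98847941, 98848089, 98847924 and 98848076 in library order. The upper end lay at 99392576, 99392222, 99392222 and 99392603. Here and below, the position given for 1 library is its pair end nearest to the pooled edge on the joined side. It is thus not a placement by that library alone. In the likelihood fit of each library alone, at 10-kb bins, the lower edge was at 98840001 and the upper at 99400000 in all 4. Of the ends inside the segment, 4.21% (95% exact binomial interval 4.00 to 4.43, counting error only) were paired with chromosome 17 within 1 Mb of the gap, that is 1392 of 33049. In the 20 kb below the segment it was 1 of 814 ends, and in the 20 kb above it 0 of 808, which allows a share of up to 0.371%. The rule that placed these edges leaves the 5 kb outside each of them without such pairs, so part of both counts follows from it.

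On chromosome 17 the segment had pairs on both sides of a gap of 15.5 kb. The last joined end below the gap was at 27617303 and the first above it at 27632829. The last end below was at 27616898, 27612985, 27616996 and 27617303 in library order, and the first above at 27632896, 27632829, 27632901 and 27633215. The gap is the stretch between these joined ends, so by definition it holds 0 pairs with the segment, although 2227 ends were placed there. In the 20 kb below the gap the share paired with the segment was 3.86% (2.80 to 5.18) and in the 20 kb above it 2.53% (1.88 to 3.33).

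The orientation was read from which corner was dense. Within 1 Mb of the upper end of the segment and of the lower side of the gap, 891 of 1422 pairs (62.7%, 60.1 to 65.2) joined the segment with the lower side. Within 1 Mb of the lower end and of the upper side, 516 of 1437 pairs (35.9%, 33.4 to 38.5) joined the segment with the upper side and 889 joined it with the lower side, and within 500 kb the share was 43.0%. The segment is shorter than these ranges, so they take in pairs of both junctions, and a range of 100 kb was added after the data were seen. Within 100 kb of the upper end of the segment and of the lower side of the gap, 233 of 246 pairs (94.7%, 91.1 to 97.2) joined the segment with the lower side of chromosome 17. Within 100 kb of the lower end of the segment and of the upper side of the gap, 51 of 70 pairs (72.9%, 60.9 to 82.8) joined it with the upper side. By this range, the upper end of the segment lay next to the lower side of the gap and the lower end next to its upper side, so that the segment ran in reverse relative to chromosome 17. The Poisson log likelihood of the pairs within 1 Mb was highest for this reversed segment. It was lower by 718 for a segment in the opposite orientation, and by 856 and 1930 when only the first or only the second junction was kept. With an open chromosome 13 below the upper edge, as in a simple translocation, it was lower by 1115. These arrangements were computed at the edges fitted for the reversed segment and were not refitted. The form of that fit was also set after the maps were seen, so the differences lean towards it. The nearest pair had a joined distance, the sum of the distances of its ends from their edges, of 1.06 kb at the first junction and 0.152 kb at the second, and 7 and 8 pairs lay within 10 kb.

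**Figure D1:**
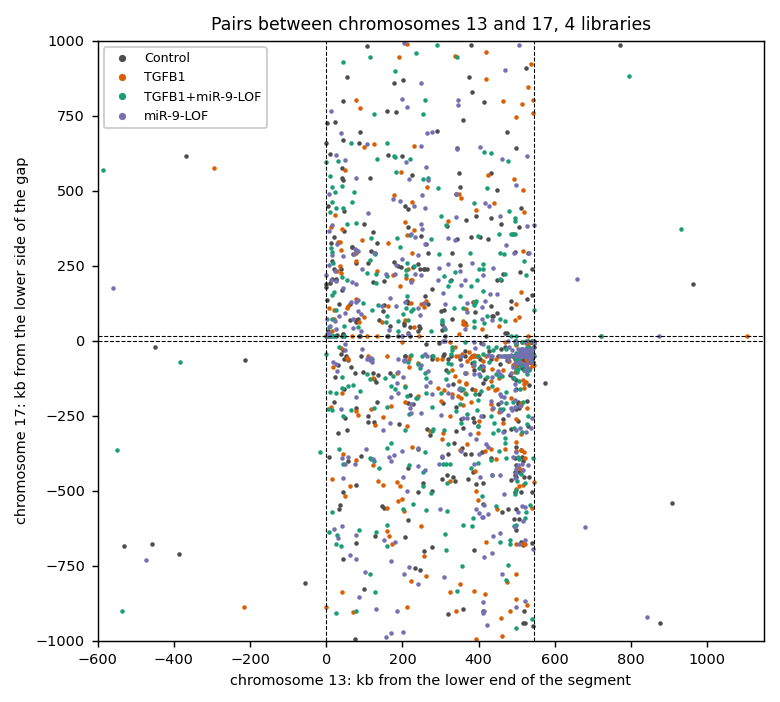
Pairs between chromosomes 13 and 17 in the 4 libraries, each point 1 pair. The horizontal axis gives kb from the lower end of the segment on chromosome 13, the vertical axis kb from the lower side of the gap on chromosome 17, and dashed lines mark the ends of the 545-kb segment and the 15.5-kb gap. Points fill the segment on both sides of the gap, are densest at its upper end just below the gap, and are sparse outside the segment.

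All 4 edges lay in genes of GENCODE vM21, each outermost end in an intron. The lower end of the segment lay in Tnpo1 (minus strand, chr13:98839019-98926384), which encodes transportin, a nuclear import receptor. The Tnpo1 start was inside the segment, 78.5 kb from the edge, so that the edge separated its 3′ part from its promoter. The upper end lay in Mrps27 (plus strand, chr13:99344786-99415562), 47.8 kb from its start, and there too the promoter was inside. The nearest coding starts outside the segment were Fcho2, which acts in clathrin-mediated endocytosis, 32.5 kb below the segment, and Map1b, a microtubule-associated protein, 124 kb above it.

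The chromosome 17 edges lay in adjoining genes that are transcribed from the minus strand. The lower side of the gap was in Nudt3 (chr17:27579382-27623495), a hydrolase of diphosphoinositol polyphosphates, whose start was in the gap, 6.19 kb from the edge. The upper side was in Rps10 (chr17:27630418-27636669), a protein of the small ribosomal subunit, 3.84 kb from its start. Both sides lay in the readthrough gene RPS10-NUDT3 (chr17:27580780-27635222). Reads of the annotated overlap of these genes cannot be assigned to 1 of them.

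The third junction joined the upper parts of chromosomes 1 and 10. Within 1 Mb of both edges, 531 of 572 pairs (92.8%, 90.4 to 94.8) had both ends above the edges, and within 100 kb it was 40 of 40. The first joined end of chromosome 10 was at 43169562, and in library order it was at 43169562, 43171260, 43172514 and 43170900. In the 20 kb above this edge 3.62% (2.65 to 4.81) of the ends were paired with the joined parts of chromosome 1, against 0 of 947 ends in the 20 kb below, which allows up to 0.317%. Here too the rule that placed the edge leaves the 5 kb outside it without such pairs. The edge lay in an intron of Sobp (minus strand, chr10:43002500-43174530), the sine oculis binding protein, 4.97 kb from its start, so that the Sobp promoter was on the joined side and most of the gene was not. The next coding start on the other side of the edge was Scml4, 309 kb away.

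On chromosome 1 the joined DNA came in parts. A first piece of 29.0 kb ran from 115253683 to 115282653 and had 34 pairs with chromosome 10, 4.46% of its ends (3.11 to 6.17). They were 12, 6, 6 and 10 in library order, so that each library held some. The next 634 kb held 3 pairs among 15752 ends. A small piece of 2.55 kb began at 115916465 and held 7 pairs, 2, 2, 3 and 0 in the 4 libraries, of 90 ends. The following 14.6 kb was picked as the widest stretch without pairs near the edge, so its 0 pairs of 370 ends follow from that choice. After it the main part began at 115933658, and 3.01% (2.03 to 4.30) of the ends in its first 20 kb were joined. The small piece thus rested on few pairs, miR-9-LOF held none of them, and its first joined end was at 115941906.

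The edge on chromosome 1 was placed at the small piece, within an intron of Cntnap5a (plus strand, chr1:115684756-116587323), a gene of 903 kb for a contactin-associated protein. Its start was 232 kb below the edge, in the stretch that was not joined, and had 0 pairs with chromosome 10. The piece lay in no annotated gene, with Dsel and Cntnap5a as the nearest coding starts. The likelihood of the pairs was highest with the piece and the main part. It was lower by 160 with the main part alone and by 554 with all of chromosome 1 above the piece joined. Both were computed at the edges fitted for the piece and the main part and were not refitted, so these differences lean towards that arrangement.

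**Figure D2:**
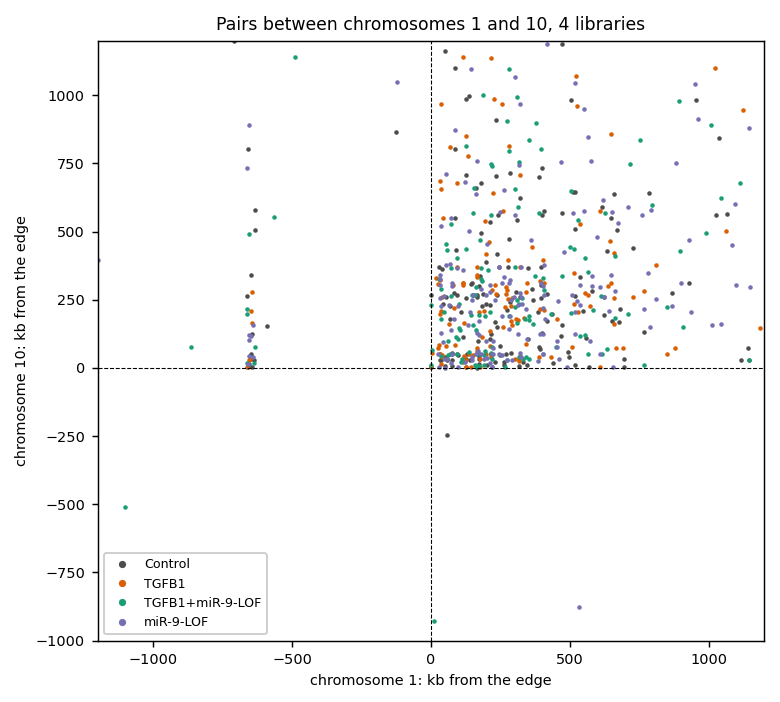
Pairs between chromosomes 1 and 10 in the 4 libraries, each point 1 pair. The axes give kb from the edges on chromosome 1 and chromosome 10, marked by dashed lines. Points fill the upper right part, with a narrow column of the 29.0-kb piece to its left, and are sparse below the chromosome 10 edge.

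Contacts across each junction, over the 4 libraries together, stayed under those of 1 intact chromosome in each range of joined distance. The expected number for 1 chromosome was taken from the coverage of both bins and the decay with distance over the genome. At joined distances of 50 kb to 1 Mb, the first junction of the segment (upper end with lower side) had 795 pairs, 18.2% (exact Poisson interval 16.9 to 19.5) of those expected. It was 17.2%, 20.9%, 17.6% and 17.7% in library order, with overlapping intervals. The second junction (lower end with upper side) had 445 pairs, 9.18% (8.34 to 10.1), and 10.3%, 7.41%, 9.71% and 8.98% in the libraries. The junction of chromosomes 1 and 10 had 450 pairs, 22.0% (20.0 to 24.1), and 24.9%, 28.5%, 17.7% and 19.6%. There the interval of TGFB1 (23.3 to 34.4) did not overlap that of TGFB1+miR-9-LOF (14.4 to 21.6), which covers counting error only. The level of the second junction was under that of the first in each library.

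The expected number depended on how coverage was used. From distance alone, without the coverage of each bin, the levels were 47.0%, 26.2% and 24.0% for the first, the second and the third junction. Joined distances of these levels were counted in 10-kb bins from the fitted edges, and not from the outermost ends. The level of the first junction was highest at 50 to 100 kb, at 34.3% (28.3 to 41.3), and was 12.8% (10.6 to 15.3) at 700 kb to 1 Mb. That of the second junction was between 5.08% and 10.7% in all distance ranges. That of the third was lowest at the shortest distances, with 1 pair and 1.52% (0.0308 to 8.50) at 10 to 50 kb. Its joined distance left out the 29.0-kb piece and the pairs of that piece, and took the 14.6 kb without pairs as joined. How far this lowers the level at short distances was not tested, so it is not read as a trait of the junction. It was 13.5% (8.27 to 20.9) at 50 to 100 kb and 26.1% (22.3 to 30.5) at 400 to 700 kb.

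**Figure D3:**
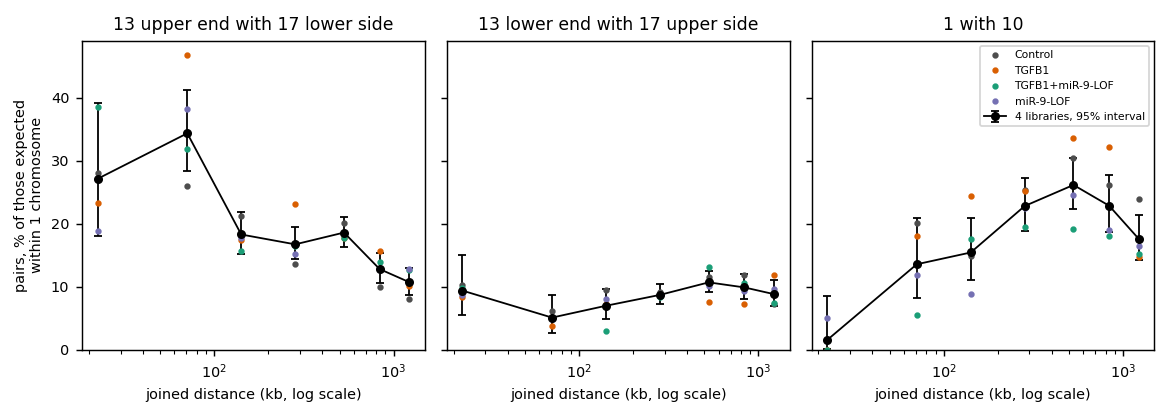
Pairs across each junction as a percentage of those expected within 1 chromosome, against the joined distance in kb on a log axis. Black points are the 4 libraries together with 95% Poisson intervals, coloured points the single libraries. The first junction falls from 34.3% at 50 to 100 kb to 12.8% at 700 kb to 1 Mb, and the second stays between 5.08% and 10.7%.

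Contacts of the same chromosome across each edge remained. This measure was not used to choose the windows, and it was set against every 10-kb boundary of chromosomes 1 to 19 and X, whose median was 140% of the expected pairs, with 90% of boundaries between 49.3% and 343%. At the lower and upper side of the gap on chromosome 17, 45.2% (43.7 to 46.7) and 42.5% (41.0 to 44.0) of the expected pairs spanned the edge. At the lower and upper end of the segment it was 65.3% (62.3 to 68.3) and 92.8% (89.0 to 96.7). It was 194.5% (185 to 204) at the chromosome 1 edge and 70.4% (67.8 to 73.1) at the chromosome 10 edge. So 4 of 6 edges were below 75% of the expected pairs, where 16.7% of all 249842 boundaries were. The expected pairs rest on the product of bin coverages, and the boundaries were not matched to the edges for coverage. No loss of contacts at the edges is therefore read from this count. The pair of edges at the gap share most of their contacts and are close to 1 observation. Of all boundaries, 2.90% were lower than the lowest edge, the upper side of the gap, and 70.2% were lower than the chromosome 1 edge.

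Coverage was compared on both sides of each edge. The median number of pair ends per 10-kb bin was compared over 1 Mb on each side, without bins that hold an H3K4me3-enriched region. It was 450.5 below and 485 above the lower end of the segment, and 518 below and 363 above its upper end, a log2 ratio of -0.51. Across the gap on chromosome 17 it was 781 and 786, a log2 ratio of 0.01. It was 257.5 below and 290.5 above the chromosome 1 edge, a log2 ratio of 0.17, and was 690.5 below and 548.5 above the chromosome 10 edge, a log2 ratio of -0.33. The segment is 545 kb long, so ranges of 1 and 2 Mb at its ends run past its other edge, and the range of 500 kb alone sets the segment against its flank. Over 500 kb the log2 ratio was 0.27 at the lower end, against 0.11 over 1 Mb and -0.13 over 2 Mb, and -0.42 at the upper end. The direction changed with the range at other edges too. At the chromosome 1 edge it was 0.36 over 500 kb, -0.034 over 2 Mb and 0.031 after correction for GC content. At the lower side of the gap it was 0.18, -0.10 and 0.26 in the same order. A step of at least 1.5-fold was found at 0 of 6 edges, and at 19% of all 251841 boundaries. The upper end of the segment had the widest step, and 23.6% of boundaries had one as large. Within 500 kb the median was 542 in the segment (53 bins, quartiles 459 and 670), 451 below it and 402 above it.

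The junctions brought 28 coding promoters within 500 kb of an edge on a joined side. An H3K4me3-enriched region lay within 2 kb of 14 of the 28, against 37.9% of the 21755 coding promoters of the genome. Pairs across the junction were counted within 10 kb of each start and 1 Mb of the other edge, and all 28 promoters had some. The windows were chosen for being dense in such pairs, and other promoters were not counted this way, so no result is drawn from this count. At the segment and chromosome 17, the 11 promoters with an enriched region had 12 to 163 pairs with a median of 42. The 10 without one had 7 to 42 pairs with a median of 20.5. This split cannot test H3K4me3, because the coverage that defines an enriched region comes from the same libraries as the pairs. Some promoters share or overlap windows, so their pairs enter more than once. RPS10-NUDT3 and Rps10, whose windows overlap, had 42 pairs each and fell in different sets. Distance from the edge was not matched either, so no difference is read from these medians. For the promoters with the most pairs, the text also gives the share that these pairs made of all pairs of the promoter with either the joined DNA or as many bases of its own chromosome beyond the edge. The lengths matched but the distances did not, so the shares describe and do not rank junctions.

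The promoters of the segment contacted chromosome 17. Mrps27 and Ptcd2, which encodes a mitochondrial pentatricopeptide repeat protein, start head to head and share 1 window. It had 138 pairs across the junction (Poisson interval 115.9 to 163), as 49, 29, 30 and 30 in library order. These made 24.9%, 24.6%, 25.6% and 27.3% of the pairs of the window in the libraries, so the share was nearly level where the counts were not. Tnpo1 had 48 pairs (35.4 to 63.6), as 15, 10, 7 and 16. Zfp366, a zinc finger protein, had 37 and 1700024P04Rik had 20, although neither had an enriched region within 2 kb. All 5 promoters of the segment thus had pairs with chromosome 17, which the choice of the window makes likely.

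Below the gap, Hmga1 and AI413582 had the most pairs with the segment. Hmga1, 60.8 kb from the edge, had 154 pairs (131 to 180), as 60, 45, 19 and 30 in library order. AI413582, 51.5 kb from the edge, had 163 (139 to 190), as 56, 47, 27 and 33. Their windows overlap, so these counts share pairs. These are counts, not scaled for the depth of the libraries, in which TGFB1 was the shallowest, so no order of the libraries is read from them. The pair ends within 2 kb of the start, a measure of H3K4me3 at the promoter, were scaled. Per 1000000 ends they were 22.5, 18.1, 10.5 and 12.1 at Hmga1 and 34.5, 27.9, 13.9 and 17.2 at AI413582. Summed over the 12 fibroblast marker promoters the same measure was 183, 141, 90.8 and 98.5, in the same order of libraries. The share across the junction was 25.8%, 32.4%, 18.1% and 23.8% at Hmga1 and 24.7%, 36.2%, 26.7% and 29.2% at AI413582. It was highest in TGFB1 at both, and the part of promoter H3K4me3 and depth in the counts was not tested.

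The other promoters below the gap had fewer pairs. Grm4, a metabotropic glutamate receptor, had 31, and Lemd2, a protein of the inner nuclear membrane, had 16. Ip6k3, an inositol hexakisphosphate kinase, had 15 and Uqcc2, an assembly factor of respiratory complex III, had 12. Among promoters up to 2 Mb away, Itpr3, an inositol trisphosphate receptor, and Cuta followed with 19 and 17. All of these stood under Hmga1 and AI413582, which are nearer to the edge. Above the gap, RPS10-NUDT3 had 42 pairs at 2.39 kb from its edge. The part of distance in these counts was not tested.

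Above the gap the 10 promoters within 500 kb had 7 to 42 pairs with a median of 22.5, and the 6 below it 12 to 163 with a median of 23.5. Without Hmga1 and AI413582, those below lay within the range of those above. RPS10-NUDT3 and Rps10, whose windows overlap, had 42 pairs each (30.3 to 56.8), as 21, 9, 7 and 5 in library order. Pacsin1, which acts in membrane trafficking, had 21, Spdef, an epithelial ETS factor, 23, and D17Wsu92e 22. Snrpc, a protein of the U1 snRNP, had 20, Uhrf1bp1 22, and Tcp11 7. Anks1 and Taf11, a subunit of TFIID, start next to each other and had 25 pairs each. Their window had the most H3K4me3 of these promoters, with 52.3, 37.0, 23.3 and 26.1 ends per 1000000, and fewer pairs than Rps10, which is nearer to the edge.

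Of the 6 densest 10-kb bin pairs of the chromosome 13 and 17 windows, the first 4 held the AI413582 start on chromosome 17, and the first and the fifth held a coding start on both sides. The bin of the Mrps27 and Ptcd2 starts (chr13:99340001-99350000) and that of the AI413582 start (chr17:27560001-27570000) had 16 pairs, against 5.31 under the fitted model. They were 7, 5, 2 and 2 in library order. The next bin of chromosome 13, which holds no coding start, had 15 pairs with the same bin of chromosome 17, against 2.09, as 4, 3, 3 and 5. These bin pairs were picked as the densest, and the model was fitted to the same pairs. An excess over the fit follows in part from that choice, so none is read as a result. Between windows of 10 kb around both starts, Mrps27 had 38 pairs with Hmga1 at a joined distance of 109 kb. They were 20, 8, 6 and 4. Mrps27 with AI413582 also had 38, at 99.4 kb, as 19, 7, 6 and 6, and the windows of Hmga1 and AI413582 overlap. Apart from these and the same counts for Ptcd2, the highest was 5, for Mrps27 with Grm4.

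At the third junction the promoters within 500 kb with pairs across were all on chromosome 10. Pdss2, 51.9 kb from the edge, had 46 pairs with chromosome 1 (33.7 to 61.4), as 14, 10, 10 and 12 in library order. They made 11.9%, 10.8%, 12.8% and 14.0% of its pairs in the libraries. Sobp and 9030612E09Rik, which start next to each other, had 32 pairs each, as 13, 5, 8 and 6. Bend3, a BEN domain transcriptional repressor, had 28, as 5, 11, 1 and 11, so TGFB1+miR-9-LOF held 1 pair only. 1700021F05Rik had 19, Gm9803 6, and Cd24a, a surface glycoprotein, 5. On the joined part of chromosome 1 the nearest coding start was Gm19965, 887 kb from the edge, with 3 pairs, and Gm28363, Gm28360 and B020011L13Rik had 1, 1 and 0. None of these 4 promoters of chromosome 1, nor that of Cntnap5a, had an enriched region within 2 kb.

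**Figure D4:**
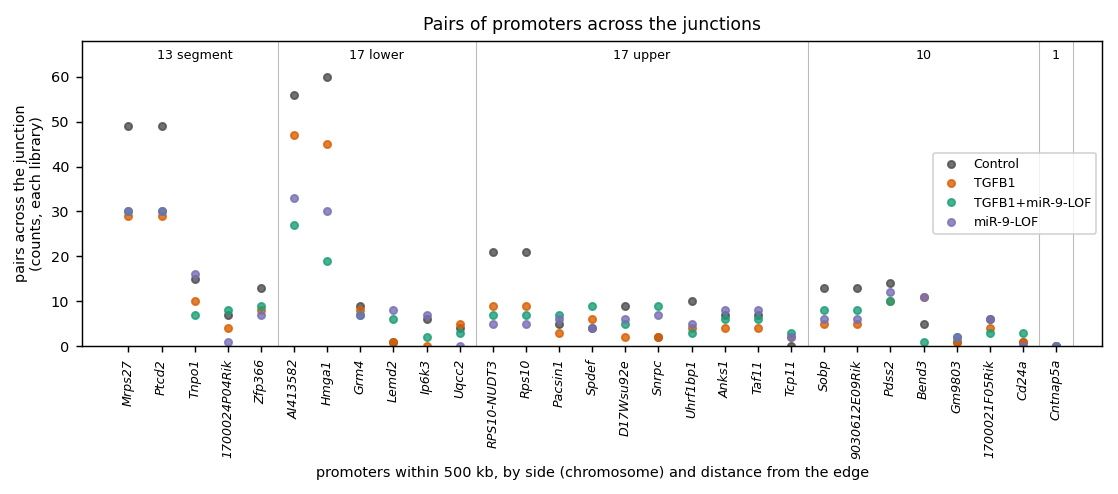
Pairs across the junction within 10 kb of the starts of the promoters within 500 kb of an edge, as counts in each library. Promoters are ordered by side and by distance from the edge. Hmga1 and AI413582 are highest, with 60 and 56 pairs in Control, and Cntnap5a, in the stretch of chromosome 1 that is not joined, has 0.

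At the main scaling no comparison of libraries in the junction pairs passed the adjusted threshold. Pairs in the joined quadrants within 1 Mb were set against all pairs of the same chromosome at 20 kb or more. The segment had 400, 305, 345 and 342 pairs with chromosome 17 in library order, or 46.1, 49.3, 43.1 and 40.01 per 1000000. Chromosomes 1 and 10 had 144, 121, 118 and 148 pairs, or 16.6, 19.6, 14.7 and 17.3 per 1000000. At each of these, TGFB1 was compared with Control, TGFB1+miR-9-LOF with TGFB1, and miR-9-LOF with Control. In these 6 comparisons with the exact binomial test (two-sided), 0 had a Benjamini-Hochberg adjusted p under 0.05 and 1 an unadjusted one. The lowest was TGFB1+miR-9-LOF against TGFB1 at chromosomes 1 and 10, with a log2 ratio of -0.41 (interval -0.79 to -0.03), an exact p of 0.0312 and an adjusted p of 0.169. The other log2 ratios lay between -0.20 and 0.24. These tests compare libraries and not conditions, and they cover the counting of pairs only, not the spread between repeated libraries.

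Per 1000000 pairs between chromosomes, 5 of the 6 comparisons had an adjusted p under 0.05 in the same exact test, which again covers counting only. The segment then had a log2 ratio of 0.28 for TGFB1 against Control (exact test, adjusted p = 0.0179), of -0.28 for miR-9-LOF against Control (adjusted p = 0.0179) and of -0.55 for TGFB1+miR-9-LOF against TGFB1 (adjusted p = 8.27e-06). Chromosomes 1 and 10 had 0.42 (exact test, adjusted p = 0.0236) and -0.76 (adjusted p = 0.000168) for the same comparisons with TGFB1. Which scaling is nearer to the truth was not tested. The share of all pairs that lay between chromosomes moved the other way. It was 17.03% for Control, 15.1% for TGFB1 and 19.3% where TGFB1 was combined with the miR-9-5p antagomiR. Per 1000000 valid pairs, another scaling, the segment had log2 ratios of 0.10, -0.20 and -0.18, in the order of comparisons given for the main scaling. Those of chromosomes 1 and 10 were 0.24, -0.41 and 0.082. By that scaling no comparison passed the adjusted threshold. None did at the main scaling without the mapping quality minimum, within 500 kb or 2 Mb, or with each pair of fragments once.

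The contacts reached beyond the windows. Against 2 Mb of chromosome 13 below the segment, the segment had 4.08-fold (3.59 to 4.63) of the expected pairs with chromosome 17 between 30 and 36 Mb, and 2.02-fold (1.82 to 2.23) between 40 and 95 Mb. Each library was above 1 in both ranges, from 2.90-fold to 5.36-fold and from 1.86-fold to 2.32-fold. Over the whole of chromosome 17 the segment had 7.01-fold of its median level with the 18 chromosomes other than 13 and 17, which had 0.882-fold to 1.18-fold, but these pairs include those by which the window was chosen.

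Chromosome 1 carried a second boundary. Its contacts with chromosome 10 above the edge were compared with those of chromosome 1 between 3 and 80 Mb. In 250-kb bins they were highest just above the edge, with 9.17-fold at 0.209 Mb from it. Below the edge and the piece they were raised too, such as 2.10-fold at -1.79 Mb. That is near the level of some bins of the joined part, such as 2.00-fold at 17.7 Mb. The contacts dropped at 136470000, 20.6 Mb above the edge, from 2.35-fold in the 1 Mb below to 0.949-fold in the 1 Mb above. The coding gene within 10 kb of this drop was Kif14, a mitotic kinesin, which was named after its place was seen. Between the window and the drop the contacts with chromosome 10 above 45 Mb were 3.09-fold (3.05 to 3.12), and 3.06, 3.35, 2.96 and 3.07-fold in library order. Beyond it the contacts with chromosome 10 above its edge were 0.920-fold (0.906 to 0.934), and from 85 Mb of chromosome 1 up to near the piece they were 1.45-fold (1.42 to 1.47). With chromosome 10 below 41 Mb, chromosome 1 between the window and the drop had 0.698-fold (0.672 to 0.724). What adjoins chromosome 1 at the drop was not found here.

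**Figure D5:**
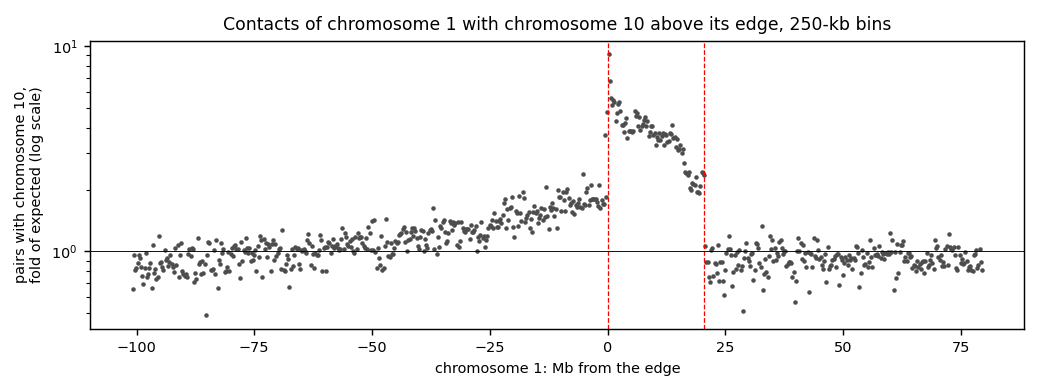
Contacts of chromosome 1 with chromosome 10 above its edge in 250-kb bins, as fold of the expected pairs on a log axis, against Mb from the chromosome 1 edge. Red dashed lines mark the edge and the drop 20.6 Mb above it. The level drops at the upper line from 2.35-fold in the 1 Mb below to 0.949-fold in the 1 Mb above.

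Bin pairs as dense as these were rare over the genome. Of 49916849 pairs of 250-kb bins on different chromosomes, 488 (0.000978%) held at least 10 pairs and 10-fold of the expected number. The windows held 45 of them, 28 of 320 bin pairs of chromosomes 13 and 17 and 17 of 256 of chromosomes 1 and 10. The windows were chosen for such pairs, so nothing is read from these counts.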

How the data were processed

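The data were H3K4me3 HiChIP libraries of MLg cells, 1 per condition. The deposited pairs are the output of HiC-Pro, which the authors ran on mm10 with MboI as the enzyme, at its defaults and with no minimum distance between ends. Duplicates are already gone, and the version is not given in the sources used here. The deposited lists give position, strand and fragment of both ends and a mapping quality score for each. Fragment numbers were checked against GRCm38.

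Pairs with both scores at least 30 on chromosomes 1 to 19 and X were binned at 10 kb. Expected pairs were the product of the bins' coverage and the genome-wide decay with distance. Edges were placed by Poisson likelihood, tested on simulated windows, and refined to the outermost pair end reached in steps of at most 5 kb. The design foresaw 1 corner per window, and the fit was widened after the maps were seen. H3K4me3-enriched regions were 1-kb bins at least 4-fold over the higher of local coverage and the mean of the chromosome (false discovery rate 0.01). They were called on the 4 libraries drawn to equal depth, without the mapping quality minimum. Libraries were compared by a two-sided exact binomial test with Benjamini-Hochberg adjustment over 6 comparisons. Intervals are exact (95%) and cover counting error only. Genes named were those at an edge, the nearest coding starts, coding starts within 500 kb on a joined side, and the 5 promoters per side within 2 Mb with most pairs. The windows, members and lists were chosen with earlier results of these data known. Tests used scipy 1.17.1, tables pandas 2.3.3 and figures matplotlib 3.10.9, under Python 3.11.15.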

Additional observations from a re-analysis of the deposited data

How the results depend on the processing

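There was 1 library per condition, depth limits the edges to the nearest pair end, and no read across a breakpoint was examined, so the joined bases themselves are not known. Each condition had 1 library, and no paired analysis was run. Of the 64 edge placements under other bin widths, within 500 kb, without the mapping quality minimum and without 1 library, 63 stayed within the resolution, and the chromosome 1 edge ranged from 115910001 to 115940001 on leaving out 1 library, the upper value being without TGFB1. The dense-corner share was 62.7%, 35.9% and 92.8% for the first, the second and the third junction within 1 Mb, 67.6%, 43.0% and 99.7% within 500 kb, and 94.7%, 72.9% and 100% within 100 kb, a range chosen after the data were seen. The level of the first junction was 14.8% at 100 kb to 2 Mb, 20.3% at 20 to 500 kb and 47.0% from distance alone. That of the second was 26.2% from distance alone, and that of the third 19.4% at 20 to 500 kb. Contacts across the edges at 100 kb to 2 Mb were 85.3% at the upper end of the segment, 39.5% and 39.2% at the lower and upper side of the gap, 219% at the chromosome 1 edge and 58.6% at the chromosome 10 edge. On leaving out 1 library they ranged from 88.3% to 96.4% at the upper end of the segment and from 180% to 211% at the chromosome 1 edge. The log2 coverage steps at the lower and upper end of the segment, the lower and upper side of the gap and the chromosome 1 edge were 0.27, -0.42, 0.18, 0.18 and 0.36 over 500 kb and -0.13, -0.36, -0.10, -0.10 and -0.034 over 2 Mb. Corrected for GC content they were 0.023, -0.36, 0.26, 0.26 and 0.031, with -0.21 at the chromosome 10 edge. Without the mapping quality minimum they were 0.18 and -0.43 at the lower and upper end of the segment. On leaving out 1 library they ranged from -0.52 to -0.46 at the upper end of the segment, from -0.072 to 0.051 at the lower side of the gap and from -0.054 to 0.067 at its upper side. Per 1000000 pairs between chromosomes, the log2 ratios of the segment were 0.28, -0.55 and -0.28 for TGFB1 against Control, TGFB1+miR-9-LOF against TGFB1, and miR-9-LOF against Control. Those of chromosomes 1 and 10 were 0.42, -0.76 and -0.014, and the last of these turned its direction. The first 5 had an adjusted p under 0.05 by this scaling and not by the main one. The counts of joined pairs are the same in both scalings, and only the library totals they are set against differ. Why these totals differ between libraries was not tested. Promoter pairs at the segment and chromosome 17 summed to 442 within 5 kb, 956 within 25 kb and 678 without the mapping quality minimum, and those of chromosomes 1 and 10 to 95 within 5 kb and 232 within 25 kb.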
